A study of Rattus norvegicus with 10 samples.

Results

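The nuclear genes for the respiratory chain and the ATP synthase were followed across 10 chemically induced rat mammary tumours, 5 from offspring of dams on a Western-style diet (WD) and 5 from offspring of dams on a control diet (CD). Genes were taken by symbol: those starting with Nduf, Sdh, Uqcr, Cox4, Cox5, Cox6, Cox7, Cox8 or Atp5. The array carried 94 probes that matched 81 such genes, and 42 protein-coding RefSeq genes under these prefixes had no matched probe. Of the 81, 77 passed the filter on dim probes, among 16779 genes tested. The filter asks for a signal the scanner software marks as well above background on 5 or more of the 10 arrays. Of the 16779, 8270 had a gene symbol, and the rest were known only by the array's own transcript entry. Shares of all genes below are over this mixture. The 77 comprised 29 subunits of complex I, 4 of complex II, 7 of complex III, 14 of complex IV and 14 of complex V (68 subunits in all), 7 assembly factors, the supercomplex factor Cox7a2l and the ATP synthase inhibitor Atp5if1. Ndufa4 was counted with complex IV, where the protein resides. The 4 genes left out, Ndufs4, Uqcrq, Cox8c and the pseudogene Cox6c-ps1, were not well above background on any array. Just inside the filter were Cox8b, well above background on 6 arrays (2 WD and 4 CD), and Cox6b2, on 7 (3 WD and 4 CD).

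All tumours came from female Sprague-Dawley rats. The dams ate either the control chow or the Western-style chow, which was rich in fat and poor in fibre and oligoelements, on gestational days 12 to 20 and postnatal days 1 to 21, and every pup ate the control diet after weaning. Animals of both groups received 1 intraperitoneal dose of 50 mg/kg N-methyl-N-nitrosourea, an alkylating carcinogen, at 3 weeks of age, and tumours were taken at 110 days, so no group without carcinogen was compared here. RNA (200 ng per tumour) was hybridised to 1-colour Agilent 4x44K arrays. The tumours are named WD1 to WD5 and CD1 to CD5. The labels do not tie tumours to dams or litters, so the p-values measure the spread between these tumours only.

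The oxidative phosphorylation system sits in the inner mitochondrial membrane. Complex I accepts electrons from NADH and complex II from succinate, both pass them through ubiquinone to complex III, and cytochrome c carries them to complex IV, which reduces oxygen. Complexes I, III and IV pump protons, and the ATP synthase, complex V, uses the proton gradient to make ATP in its F1 head. Except in complex II, some subunits are encoded by the mitochondrial genome, whose 13 genes had no probe matched by symbol, so the values below are for nuclear transcripts only. In mammary epithelium the system supplies ATP for growth and for milk synthesis.

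A level is log2 of the processed spot intensity minus the array's 75th percentile of it, and a difference is WD minus CD on that scale with its standard error (SE) from limma. The 75th percentile of intensity ran from 72.8 to 170 on the WD arrays and from 85.0 to 226 on the CD arrays, and 4 of the 5 CD arrays were brighter than every WD array. The arrays lay on 3 slides, each scanned on its own: slide 1 held WD1, WD2 and CD2, slide 2 held WD3, WD4, CD3 and CD5, and slide 3 held WD5, CD1 and CD4. Keratin and cell adhesion genes marked the tissue as epithelial: 9 of 10 luminal markers were kept by the filter, and Krt18 and Epcam were well above background on all 10 arrays. The luminal markers had a median difference of -0.33 (8 of 9 lower in WD, among them Esr1, well above background on 0 WD and 5 CD arrays), while all 4 kept T cell markers (median 1.00), all 8 macrophage markers (0.52) and all 7 fibroblast markers (0.66) were higher in WD, and 7 of 8 proliferation genes were lower (-0.68). The summed linear level of the luminal list ran from 463 to 711 in WD and from 508 to 660 in CD, that of the T cell list from 10.8 to 34.3 and from 7.41 to 13.6, and that of the fibroblast list from 65.6 to 223 and from 49.3 to 148. The T cell genes Lck and Cd2 and the luminal gene Elf3 were not kept. With the array median subtracted in place of the 75th percentile, 3 of the 8 macrophage markers were lower in WD (list median 0.27). No T cell or fibroblast marker was lower with that scaling. The part of cell makeup in the values below was not tested, and in bulk tissue fewer cells of a type and less RNA per cell cannot be told apart.

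No gene of the 16779 reached an adjusted p under 0.05 between the diet groups (limma with Benjamini-Hochberg adjustment, 0.0% called, lowest adjusted p 0.136), so no respiratory chain gene did either. At an unadjusted p under 0.05 there were 11 of the 77 members (14.3%) against 15.5% of all genes. All 11 were lower in WD: Atp5f1a, Atp5f1b, Atp5f1c, Ndufs8, Ndufs3, Ndufa9, Uqcrfs1, Ndufaf3, Ndufaf7, Sdhaf2 and Cox7a2l. Over all genes 7.72% were lower and 7.80% higher at that p, whereas no member was higher. That split over all genes moved with the scaling: of the genes at that p, 1295 of 2603 were lower in WD here, 3307 of 3638 with the array median subtracted, 1429 of 2288 in the authors' value table and 146 of 499 with normexp. The WD and CD values did not overlap for 4 members (5.19%; 3.65% of all genes), each with WD below CD (2.32% of all genes): Atp5f1a, Ndufs3, Ndufa9 and Ndufaf3. No member had every WD tumour above every CD tumour (1.34% of all genes). The mean was lower in WD for 48 of the 77 (62.3%; 48.6% of all genes). The count of 11 was 0 with normexp background correction (2.97% of all genes called at that p), 2 with array brightness as a covariate (5.73%) and 20 with the array median subtracted (21.7%).

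The medians of the 5 complexes ran from -0.18 to 0.04, beside 0.01 for all genes. The median difference was -0.07 for complex I (19 of 29 subunits lower in WD), -0.17 for complex II (3 of 4), -0.18 for complex III (7 of 7), 0.04 for complex IV (5 of 14) and -0.01 for complex V (8 of 14). The middle 50% of complex I subunits lay between -0.18 and 0.03, and those of complex V between -0.21 and 0.06. For comparison, the middle 50% of all genes lay between -0.22 and 0.26. The median level was 0.12 over all genes and 4.56 over the 68 subunits. The 7 assembly factors had a median of -0.20 (5 lower). Within slides the complex I median was -0.11 on slide 1, -0.09 on slide 2 and 0.19 on slide 3, and the complex IV median was -0.04, 0.05 and 0.39. The complex V median was -0.12, 0.002 and 0.08. The signs of the complex I, IV and V medians thus differed between slides. Those of complex II (-0.15, -0.09 and -0.04) and complex III (-0.14, -0.09 and -0.02) did not. The complex I median was 0.05 without the arrays of slide 1. The complex V median was 0.045 without WD2.

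**Figure D1:**
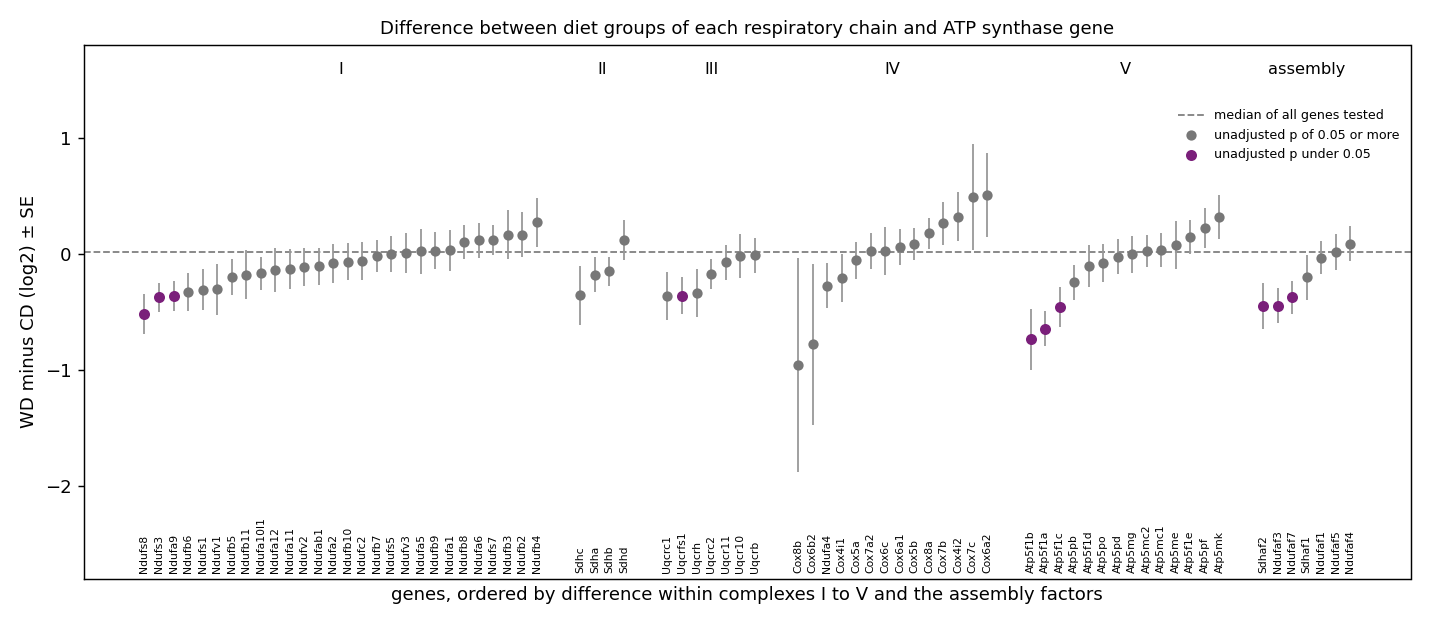
Difference between diet groups (WD minus CD, log2, with its SE) for kept subunits of complexes I to V (1 complex I gene is not drawn) and each assembly factor, ordered within each complex. Purple points are the genes with an unadjusted p under 0.05, all of them below 0, and the dashed line at 0.01 is the median of all 16779 genes.

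To set tumours side by side, each gene's level was taken relative to its own mean over the 10 tumours, and these deviations were averaged. Over the 68 subunits the average was -0.15 in WD1, -0.20 in WD2, 0.06 in WD3, -0.08 in WD4 and 0.14 in WD5, and it was 0.10 in CD1, 0.01 in CD2, 0.12 in CD3, -0.14 in CD4 and 0.14 in CD5. The groups overlapped almost fully: WD5 matched the highest CD tumour, and CD4 lay among the low WD tumours. WD2 had 54 of the 68 subunits below their own mean and CD4 also had 54, followed by WD1 with 50 and CD2 with 44, while WD5 and CD5 had 10 each. WD2 was the lowest of all tumours for 26 subunits, CD4 for 15 and WD1 for 10. The complex IV average did not follow the same order, with WD4 lowest at -0.33 and WD5 highest at 0.29. It includes Cox6b2 and Cox8b, just inside the filter, at -3.80 and -4.00 in WD4 and at -1.21 and -0.38 in WD5. By count, WD4 had 7 of the 14 complex IV subunits below their own mean, CD4 12 and WD5 1. In complex III, WD1 (-0.23) and WD2 (-0.28) were lowest and CD5 (0.20) highest.

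**Figure D2:**
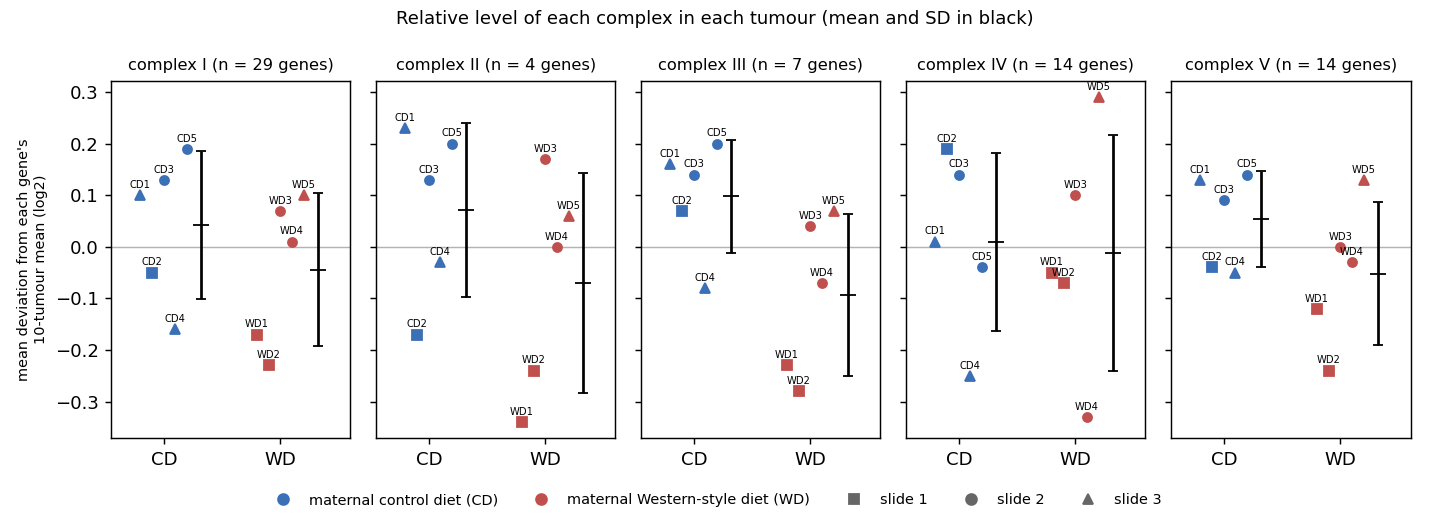
Average deviation of each complex's subunits from each gene's own 10-tumour mean (log2), 1 point per tumour, with the group mean and SD in black and the marker shape giving the slide. WD1 and WD2 are lowest in complexes I, II, III and V, CD4 is the lowest CD tumour in complexes I, III, IV and V, and the groups overlap in every complex.

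The alpha, beta and gamma genes of the ATP synthase F1 head had the largest differences among the complex V genes. F1 is a ring of alternating alpha and beta subunits, with the catalytic sites on beta, around the rotating gamma subunit. Atp5f1a, which encodes alpha (probe A_44_P223817), was at 3.11, 3.09, 2.77, 2.87 and 3.07 in WD1 to WD5 and at 3.85, 3.66, 3.22, 3.77 and 3.63 in CD1 to CD5. Every WD tumour lay below every CD tumour, and the highest WD value and the lowest CD value were close, 3.11 in WD1 against 3.22 in CD3. The means were 2.98 ± 0.15 (SD, n = 5) and 3.63 ± 0.24 (n = 5), a difference of -0.64 (SE 0.15, 1.56-fold lower), which missed the threshold after adjustment (limma adjusted p = 0.181). It was -0.56, -0.60 and -0.74 within slides 1, 2 and 3, -0.63 with slide as a block, -0.52 with normexp and -0.43 with brightness as a covariate.

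Atp5f1b, which encodes the catalytic beta subunit, was at 3.53, 2.91, 2.52, 2.69 and 3.51 in WD1 to WD5 and at 3.78, 4.05, 3.04, 4.00 and 3.97 in CD1 to CD5. CD3 lay inside the WD range, and the other CD tumours lay above every WD tumour. The difference was -0.74 (SE 0.26, 1.67-fold lower, adjusted p = 0.233), and with brightness as a covariate it was -0.18. Atp5f1c, which encodes gamma, was at 3.36, 2.60, 3.06, 2.99 and 3.38 in WD1 to WD5 and at 3.57, 3.62, 3.56, 3.29 and 3.62 in CD1 to CD5. Only CD4 overlapped the WD range, and WD2 was the lowest of the 10. Its difference was -0.46 (SE 0.17, 1.37-fold lower, limma adjusted p = 0.251). Within slides 1, 2 and 3 it was -0.65, -0.57 and -0.06, and the Atp5f1b difference was -0.83, -0.90 and -0.38.

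The rest of the ATP synthase did not share these sizes. The alpha, beta and gamma genes, grouped after their values were seen, had a median of -0.64, whereas the other 11 complex V genes had a median of 0.02, with 5 of 11 lower, no unadjusted p under 0.05 and a range from -0.25 to 0.32. The alpha, beta and gamma genes were also the dimmest kept complex V genes. Their CD means were 3.63, 3.77 and 3.53, against 4.46 for the next, Atp5f1d. The part of signal level in this split was not tested. The 2 smaller F1 subunits were at -0.10 for Atp5f1d (delta) and 0.14 for Atp5f1e (epsilon). In the peripheral stalk, which holds F1 still against the rotor, Atp5pb was at -0.25, Atp5po at -0.08, Atp5pd at -0.03 and Atp5pf at 0.22. For the proton-carrying c ring, Atp5mc1 and Atp5mc2, which encode the same mature protein, were at 0.03 and 0.02. Both signs turned without WD3 and with the array median subtracted, and a second Atp5mc2 probe gave -0.23. Another c ring gene, Atp5mc3, had no matched probe. The largest positive value in complex V was that of Atp5mk, a small membrane subunit, at 0.32 (SE 0.19, adjusted p = 0.439). Atp5if1, which blocks ATP hydrolysis by F1, was at 0.07 (SE 0.23), and that sign turned without WD3, WD4 or CD1, with the array median subtracted and with brightness as a covariate.

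**Figure D3:**
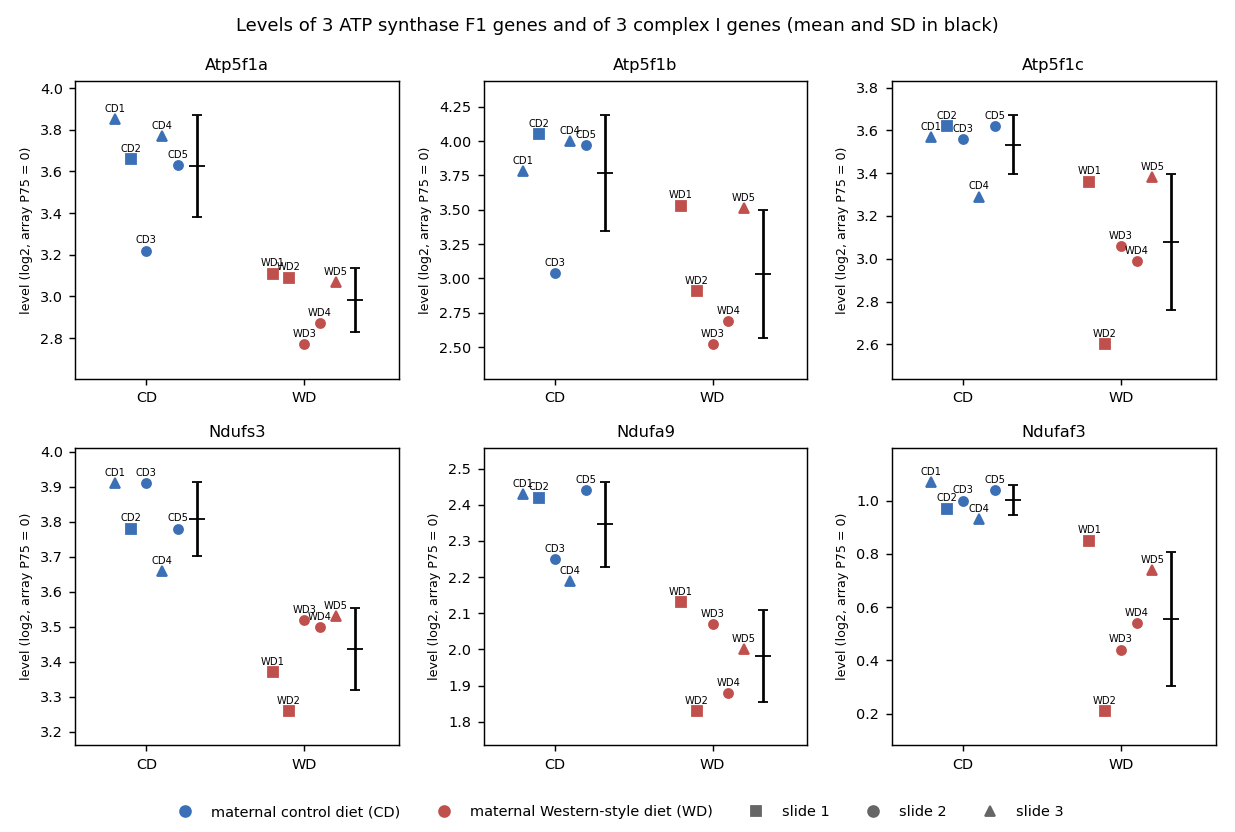
Levels (log2, array 75th percentile at 0) of Atp5f1a, Atp5f1b, Atp5f1c, Ndufs3, Ndufa9 and Ndufaf3 in the 5 CD and 5 WD tumours, with the group mean and SD in black and marker shape by slide. The groups do not overlap for Atp5f1a, Ndufs3, Ndufa9 and Ndufaf3, while CD3 falls inside the WD range for Atp5f1b and CD4 for Atp5f1c.

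Promoter sequence was compared because nuclear oxidative phosphorylation genes are textbook targets of NRF1 and of the ETS factor GABP. RefSeq (GRCr8) gave a window from 250 bases before to 50 bases after the start for 68 of the 77 genes. The letters searched on both strands were GCGCNTGCG for NRF1, CCGGAAG for ETS factors, AAGATGGCG for YY1, TCAAGGTCA for estrogen-related receptors and GGGCGG for SP1, and the search let matches of different motifs overlap. NRF1 letters were in 20 of 68 windows (29.4%), against 5.75% of all 33469 promoters and 14.1% of the 6802 promoters of tested genes. ETS letters were in 22 (32.4%, against 8.75% and 19.7%), YY1 letters in 7 (10.3%, against 1.73% and 3.78%), the receptor letters in 1 (1.47%, against 0.433% and 0.147%) and SP1 letters in 31 (45.6%, against 33.1% and 63.2%). By complex, NRF1 letters were in 6 of 13 windows of complex V, 7 of 26 of complex I, 2 of 4 of complex II, 2 of 5 of complex III and 1 of 11 of complex IV. Among the 11 genes at an unadjusted p under 0.05, 1 had NRF1 letters, 3 had ETS letters and 7 had SP1 letters.

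The 250 bases before the start are shown 5′ to 3′ on the gene's strand for the alpha, beta and gamma genes, which had the lower WD values, and for Atp5me and Atp5po, complex V genes with NRF1 letters and differences of 0.07 and -0.08. Capitals mark the motif matches that lie wholly in the printed stretch. The windows are chr18:73567287-73567536 (+), chr7:1099808-1100057 (+), chr17:73333435-73333684 (+), chr14:1464610-1464859 (+) and chr11:44657484-44657733 (-).
Atp5f1a: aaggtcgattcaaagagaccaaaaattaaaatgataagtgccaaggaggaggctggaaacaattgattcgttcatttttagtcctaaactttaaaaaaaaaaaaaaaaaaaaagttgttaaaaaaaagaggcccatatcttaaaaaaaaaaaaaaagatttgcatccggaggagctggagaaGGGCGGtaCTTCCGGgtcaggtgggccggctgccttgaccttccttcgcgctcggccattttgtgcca
Atp5f1b: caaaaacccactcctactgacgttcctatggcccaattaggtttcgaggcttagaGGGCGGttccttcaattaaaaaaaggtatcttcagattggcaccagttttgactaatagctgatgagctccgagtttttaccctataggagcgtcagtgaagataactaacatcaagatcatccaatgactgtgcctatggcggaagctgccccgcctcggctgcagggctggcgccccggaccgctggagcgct
Atp5f1c: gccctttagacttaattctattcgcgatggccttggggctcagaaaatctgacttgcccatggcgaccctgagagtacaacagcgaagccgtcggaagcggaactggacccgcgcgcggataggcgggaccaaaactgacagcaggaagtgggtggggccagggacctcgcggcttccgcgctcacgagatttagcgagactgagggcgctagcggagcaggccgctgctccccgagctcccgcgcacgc
Atp5me: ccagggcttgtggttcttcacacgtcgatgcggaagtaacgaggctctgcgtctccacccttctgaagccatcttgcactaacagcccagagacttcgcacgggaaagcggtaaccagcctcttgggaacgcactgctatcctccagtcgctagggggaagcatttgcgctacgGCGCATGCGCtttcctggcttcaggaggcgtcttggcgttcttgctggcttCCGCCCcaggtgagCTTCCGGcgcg
Atp5po: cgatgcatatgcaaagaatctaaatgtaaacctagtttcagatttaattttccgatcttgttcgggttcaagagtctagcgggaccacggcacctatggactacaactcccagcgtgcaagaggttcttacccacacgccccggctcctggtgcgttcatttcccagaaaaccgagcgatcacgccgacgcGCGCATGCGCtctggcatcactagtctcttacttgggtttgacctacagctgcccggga
In Atp5f1a the capitals are SP1 letters 68 bases and ETS letters 60 bases before the start, and in Atp5f1b SP1 letters 195 bases before it. Atp5f1c has no capitals because its NRF1 match begins 7 bases before the start and runs past it. The NRF1 match in Atp5me, 76 bases before the start, and that in Atp5po, 59 bases before it, lie in the palindrome gcgcatgcgc, so each was found on both strands. A match describes these letters only.

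Complex I passes electrons from NADH through a flavin and a chain of iron-sulfur clusters, all held by 7 conserved core subunits that are nuclear-encoded. The core genes, grouped after their values were seen, had a median difference of -0.31, with 6 of 7 lower in WD, and the 22 accessory subunits had a median of -0.04, with 13 lower. Ndufs3, a core subunit near the ubiquinone site, was at 3.37, 3.26, 3.52, 3.50 and 3.53 in WD1 to WD5 and at 3.91, 3.78, 3.91, 3.66 and 3.78 in CD1 to CD5. All WD tumours lay below all CD tumours, and the difference was -0.37 (SE 0.13, 1.30-fold lower, adjusted p = 0.215), with -0.46, -0.34 and -0.26 within slides 1, 2 and 3. It was -0.25 with normexp.

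Ndufs8, which holds iron-sulfur clusters, was at 1.91, 1.23, 1.69, 1.41 and 2.02 in WD1 to WD5 and at 2.24, 2.24, 2.09, 2.00 and 2.27 in CD1 to CD5. WD5 just overlapped CD4, and the difference was -0.52 (SE 0.17, limma adjusted p = 0.213), with -0.38 from a second probe. Within slides 1, 2 and 3 it was -0.67, -0.63 and -0.10. Of the other core genes, the differences were -0.31 for Ndufs1 and -0.31 for Ndufv1, the flavin-binding subunit, -0.11 for Ndufv2 and 0.12 for Ndufs7, all with overlapping groups. With brightness as a covariate Ndufs1 was at -0.13 and Ndufv1 at -0.001, and Ndufv1 was at -0.15 with normexp and -0.17 without CD2. The sign of Ndufs7 turned with the array median subtracted.

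Among accessory subunits, Ndufa9, which sits where the arms of the complex join, was at 2.13, 1.83, 2.07, 1.88 and 2.00 in WD1 to WD5 and at 2.43, 2.42, 2.25, 2.19 and 2.44 in CD1 to CD5. The groups did not overlap, with WD1 the highest WD tumour and CD4 the lowest CD tumour, and the difference was -0.36 (SE 0.13, 1.29-fold lower, adjusted p = 0.231). Ndufb6 followed at -0.33 (SE 0.16), with WD2 at 3.34 far below the other 9 tumours, which lay between 3.87 and 4.34, and without WD2 its difference was -0.19. The remaining accessory subunits ranged from -0.20 for Ndufb5 to 0.27 for Ndufb4, and none had an unadjusted p under 0.05. Ndufab1, the mitochondrial acyl carrier protein that is also a complex I subunit, was at -0.11 (SE 0.16).

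In complex II, which is also an enzyme of the citric acid cycle, no subunit had an unadjusted p under 0.05. Sdha, the flavoprotein that oxidises succinate, was at -0.18 (SE 0.15), Sdhb, its iron-sulfur partner, at -0.15 (SE 0.13), and the membrane anchors Sdhc and Sdhd at -0.36 (SE 0.25) and 0.12 (SE 0.17). The sign of Sdhd turned with the array median subtracted. Sdhc is taken up with the slides below.

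All 7 kept complex III genes had a lower mean in WD. Uqcrfs1, the Rieske iron-sulfur protein, was at 3.55, 2.96, 3.10, 3.34 and 3.45 in WD1 to WD5 and at 3.62, 3.82, 3.70, 3.36 and 3.70 in CD1 to CD5. The groups overlapped through WD1, WD5 and CD4, and the difference was -0.36 (SE 0.16, limma adjusted p = 0.304). Within slides 1, 2 and 3 it was -0.57, -0.48 and -0.04. The core proteins Uqcrc1 and Uqcrc2 were at -0.36 (SE 0.21) and -0.18 (SE 0.13), and the hinge protein Uqcrh was at -0.34 (SE 0.20). With brightness as a covariate Uqcrc1 was at -0.07. The small subunits Uqcr11, Uqcr10 and Uqcrb lay at -0.08, -0.02 and -0.01, and the sign of Uqcrb turned under 7 alternatives, without any 1 of 5 tumours and with its other 2 probes (0.07 and 0.06).

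Complex IV was the complex with the most tissue isoforms and the widest spread. Of the housekeeping forms, Cox4i1 was at -0.21 (SE 0.21), Cox6a1 at 0.06, Cox7a2 at 0.02 and Cox8a at 0.17, and of the restricted forms, Cox4i2, the lung and hypoxia isoform, was at 0.32 (SE 0.21), Cox6a2, the heart and muscle isoform, at 0.50 (SE 0.36), Cox6b2, the testis isoform, at -0.78 (SE 0.70) and Cox8b, found in muscle and brown fat, at -0.96 (SE 0.92). None of these had an unadjusted p under 0.05, and every pair of groups overlapped. The signs of Cox6a1, Cox7a2 and Cox8a turned with the array median subtracted, that of Cox7a2 also without WD5 or CD4, and that of Cox4i1 without the slide 1 arrays. Cox4i1 was at -0.053 without WD2. Without these 4 restricted isoforms and Cox7c the other 9 complex IV genes had a median of 0.02 and ranged from -0.27 for Ndufa4 to 0.26 for Cox7b.

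Over the 10 tumours the subunit genes varied little. Their median SD was 0.23, against 0.37 for all genes, and among genes with a mean level of at least 3 it was 0.22 for 56 subunits against 0.29 for 2298 genes. The exceptions were Cox8b (SD 1.69), Cox6b2 (1.28), Cox7c (0.83), Cox6a2 (0.67) and Atp5f1b (0.57). Cox8b was at 1.88 in CD3 and at -0.38 or below in the other 9 tumours, and its difference was -0.12 without CD3. Of 8 muscle markers, 5 were not kept, among them Ckm and Acta1. Of the 3 that were kept, Tnni2 was at 0.98 in CD3 and from 0.18 to 2.04 in the other tumours, Mb at -1.41 against -1.61 to -0.07, and Myh2 at -2.88, below the other 9. Of 6 adipocyte markers only Cidea was kept, at -2.40 in CD3 and higher in the other 9. The part of muscle or fat tissue in the Cox8b value was not tested. Cox6b2 was at -3.68 in WD1 and -3.80 in WD4, where it was not well above background, and between -2.04 and -0.14 in the other 8. Its difference was -0.335 without WD4 and -0.17 with normexp.

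Some members differed between the array slides. With group in the model, a limma F test for slide, added after the data were seen, called 390 of 16779 genes (2.32%) at an adjusted p under 0.05, and 3 of them were members: Cox7c (adjusted p = 0.00631), Cox6a2 (0.0114) and Sdhc (0.0417). At an unadjusted p under 0.05 there were 15 members (19.5%) against 16.0% of all genes. Cox7c, a small structural subunit of complex IV, was at 0.75, 0.62 and 0.32 on slide 1 (WD1, WD2, CD2), at -0.88, -1.25, -1.60 and -1.29 on slide 2 (WD3, WD4, CD3, CD5) and at -0.31, -0.28 and -0.67 on slide 3 (WD5, CD1, CD4). The slides did not overlap, and slide 1 was highest whatever the diet.

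Cox6a2 was likewise between 0.07 and 0.13 on slide 1 and between -1.64 and -0.40 elsewhere. Sdhc went the other way, with 2.59, 2.56 and 2.81 in WD1, WD2 and CD2 and values from 3.33 to 3.73 in the other 7 tumours. Within slides the Sdhc difference between diets was -0.24, -0.03 and -0.37. All 3 slide 1 arrays lay below the other 7 for 11 members (14.3%; 3.66% of all genes) and above them for 3, Cox7c, Cox6a2 and Cox4i2 (3.90%; 4.08% of all genes). The 11 were Sdhc, Sdha, Ndufa5, Ndufa12, Ndufb7, Uqcr10, Uqcr11, Uqcrb, Atp5po, Atp5pd and Cox7a2l, and the mean was lower on slide 1 for 67 of 77 members, against 59.1% of all genes. The average deviation of the 5 kept secretory (milk protein) markers was between -3.69 and -1.03 in the 4 tumours of slide 2 and between 0.81 and 1.92 in the other 6. Not every marker followed the slides: Csn2 was also low on slide 3, at -2.44 in WD5, -3.19 in CD1 and -2.74 in CD4, and Glycam1 was higher in WD3 of slide 2 (-0.74) than in WD1 (-3.40) and WD5 (-3.63). Slide and these tumours' own makeup cannot be told apart. Without slide 1 the medians of complexes I to V were 0.05, -0.12, -0.07, 0.15 and 0.08, and the differences were -0.71 for Atp5f1a, -0.79 for Atp5f1b, -0.37 for Atp5f1c and -0.17 for Sdhc.

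**Figure D4:**
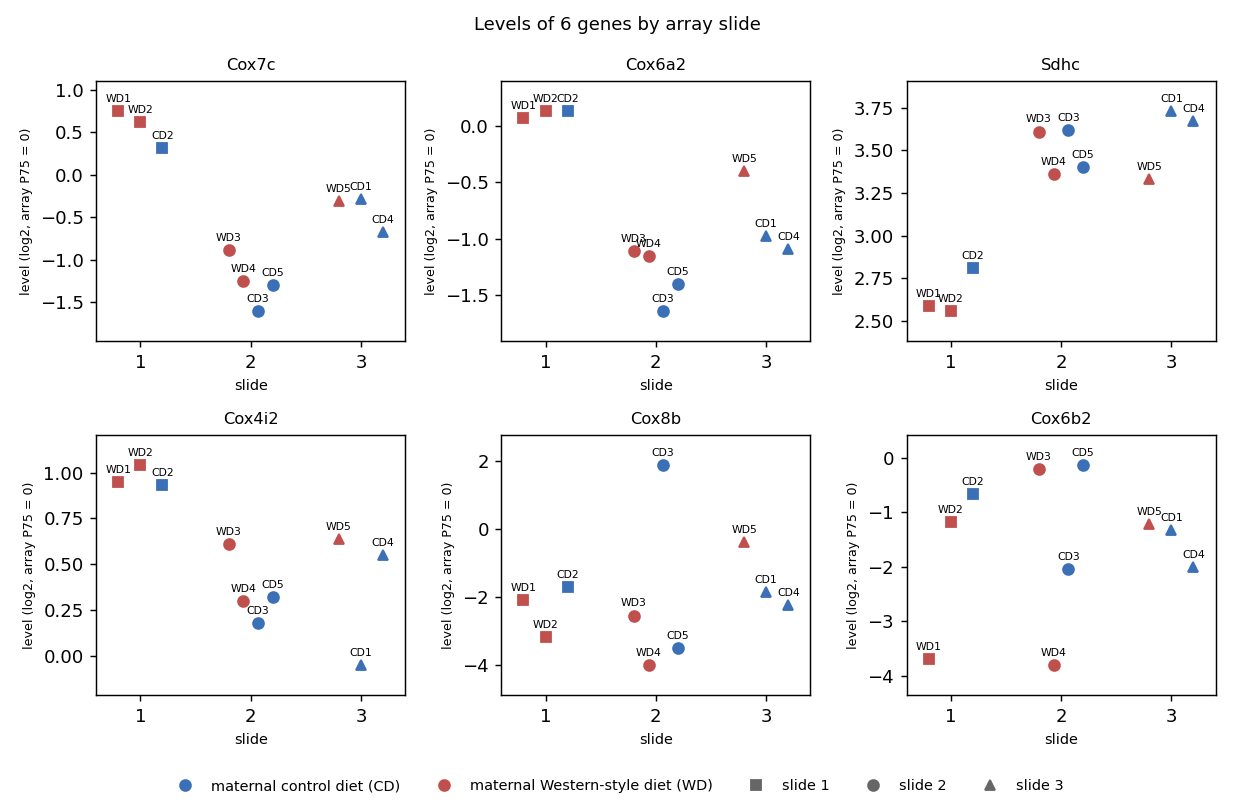
Levels (log2, array 75th percentile at 0) of Cox7c, Cox6a2, Sdhc, Cox4i2, Cox8b and Cox6b2 by slide, coloured by maternal diet and labelled by tumour. Slide 1 lies above the other slides for Cox7c, Cox6a2 and Cox4i2 and below them for Sdhc, and Cox8b stands out in CD3 alone.

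Assembly factors build the complexes without remaining in them. Ndufaf3, which helps to join the early complex I modules, was at 0.85, 0.21, 0.44, 0.54 and 0.74 in WD1 to WD5 and at 1.07, 0.97, 1.00, 0.93 and 1.04 in CD1 to CD5. The CD values were tight (SD 0.05) and all above the WD values, and the difference was -0.45 (SE 0.15, 1.36-fold lower, adjusted p = 0.212). Ndufaf7, a methyltransferase, was at -0.38 (SE 0.14, adjusted p = 0.257). Sdhaf2, which attaches the flavin to Sdha, was at -0.45 (SE 0.20, adjusted p = 0.301), but its second probe gave 0.00. Cox7a2l, which links complex III to complex IV in supercomplexes, was at -0.44 (SE 0.20, adjusted p = 0.321), with -0.29, -0.06 and -0.74 within slides 1, 2 and 3. Ndufaf1, Ndufaf4, Ndufaf5 and Sdhaf1 lay between -0.20 and 0.08.

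Of 28 kept assembly factors outside these prefixes, 22 were lower in WD (median -0.17) and 6 had an unadjusted p under 0.05 (21.4%, against 15.5% of all genes), all lower. The 6 included Atpaf1, which was well above background on 1 WD and 5 CD arrays. The number at that p was 0 with normexp (2.97% of all genes) and 1 with brightness as a covariate (3.57%, against 5.73% of all genes). Tmem126b, of the complex I intermediate assembly complex, was at 2.28, 2.09, 2.07, 2.47 and 2.40 in WD1 to WD5 and at 2.75, 2.74, 2.58, 2.55 and 2.59 in CD1 to CD5. These groups did not overlap, and the difference was -0.38 (SE 0.13, adjusted p = 0.228). Cox19, a copper-handling factor for complex IV, was at -0.45 (SE 0.16, adjusted p = 0.232). Of 6 kept carriers and dehydrogenases that feed the chain, 5 were lower and 1, Dhodh, which reduces ubiquinone during pyrimidine synthesis, had an unadjusted p under 0.05 (-0.29, SE 0.12, adjusted p = 0.293), without overlap of its groups. Etfa, of the electron transfer flavoprotein, was at -0.30.

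Of 20 kept genes of pyruvate oxidation and the citric acid cycle, 17 were lower in WD (median -0.18) and 6 had an unadjusted p under 0.05 (30.0%, against 15.5% of all genes), all lower. That number was 1 with normexp (5%, against 2.97% of all genes) and 3 with brightness as a covariate (15%, against 5.73%). Pdk3, a kinase that inactivates pyruvate dehydrogenase, was at -0.16, -0.57, -0.06, -0.75 and -0.13 in WD1 to WD5 and at 0.55, 0.50, 0.22, 1.00 and 0.52 in CD1 to CD5. Pdhb, a subunit of the dehydrogenase itself, was at 1.38, 0.94, 1.28, 1.52 and 1.20 in WD1 to WD5 and at 1.84, 1.57, 1.86, 2.17 and 1.81 in CD1 to CD5. Neither gene's groups overlapped, and the differences were -0.89 (SE 0.19) and -0.59 (SE 0.16), both with an adjusted p of 0.181. Glycolysis genes were mostly lower too: 12 of 15 (median -0.22), with 5 at an unadjusted p under 0.05 (33.3%), none of them higher. With normexp 1 was at that p (6.67%, against 2.97% of all genes). With brightness as a covariate 4 were (26.7%, against 5.73%), 3 lower and 1 higher. Ldhb, of lactate dehydrogenase, was at -0.85 (SE 0.21, adjusted p = 0.181) without overlap, and Pgk1, an ATP-making step, at -0.77 (SE 0.24, adjusted p = 0.205).

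Among 16 kept regulators of mitochondrial genes, 9 were lower (median -0.09) and 3 had an unadjusted p under 0.05 (18.8%, against 15.5% of all genes), all lower. That number was 0 with normexp (2.97% of all genes) and 1 with brightness as a covariate (6.25%, against 5.73%). Ppargc1b, a coactivator of mitochondrial biogenesis, was at -1.94, -1.77, -1.57, -2.43 and -1.93 in WD1 to WD5 and at -1.53, -0.98, -1.48, -1.08 and -0.68 in CD1 to CD5. The groups did not overlap, WD3 and CD1 lying closest, and the difference was -0.78 (SE 0.21, adjusted p = 0.181), at levels where only 3 WD arrays but all 5 CD arrays were well above background. It was -0.26 with normexp. Gabpb1 was at -0.49 (SE 0.20, adjusted p = 0.276), well above background on 2 WD and 5 CD arrays, and at -0.010 with normexp. Its partner Gabpa, named after its value was seen as the third regulator at that p, was at -0.45 (SE 0.18). Ppargc1a and Esrrg were not kept.

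Of 7 kept exchange genes, 5 were lower (median -0.09), with Vdac2, an outer membrane channel, at -0.52 (SE 0.17, adjusted p = 0.214). Ckmt1, mitochondrial creatine kinase, was the single gene of these pathways that was higher at an unadjusted p under 0.05, at 1.16 (SE 0.45, adjusted p = 0.258), and was well above background on 4 WD and 2 CD arrays. It was at 0.29 with normexp, and its unadjusted limma p was 0.0537 with slide as a block and 0.155 with brightness as a covariate. The 9 cristae and outer membrane genes had a median of 0.00, with 4 lower and none at that p. Immt, the central cristae organiser, was at 0.33, a sign that turned with brightness as a covariate, and Tomm20, an import receptor, was at -0.22. Of the uncoupling proteins, Ucp2 was at 3.52, 2.76, 2.98, 2.78 and 3.47 in WD1 to WD5 and at 3.73, 4.28, 3.59, 4.26 and 4.13 in CD1 to CD5, all WD tumours below all CD tumours (-0.90, SE 0.21, adjusted p = 0.181). Ucp3 was at -0.38.

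**Figure D5:**
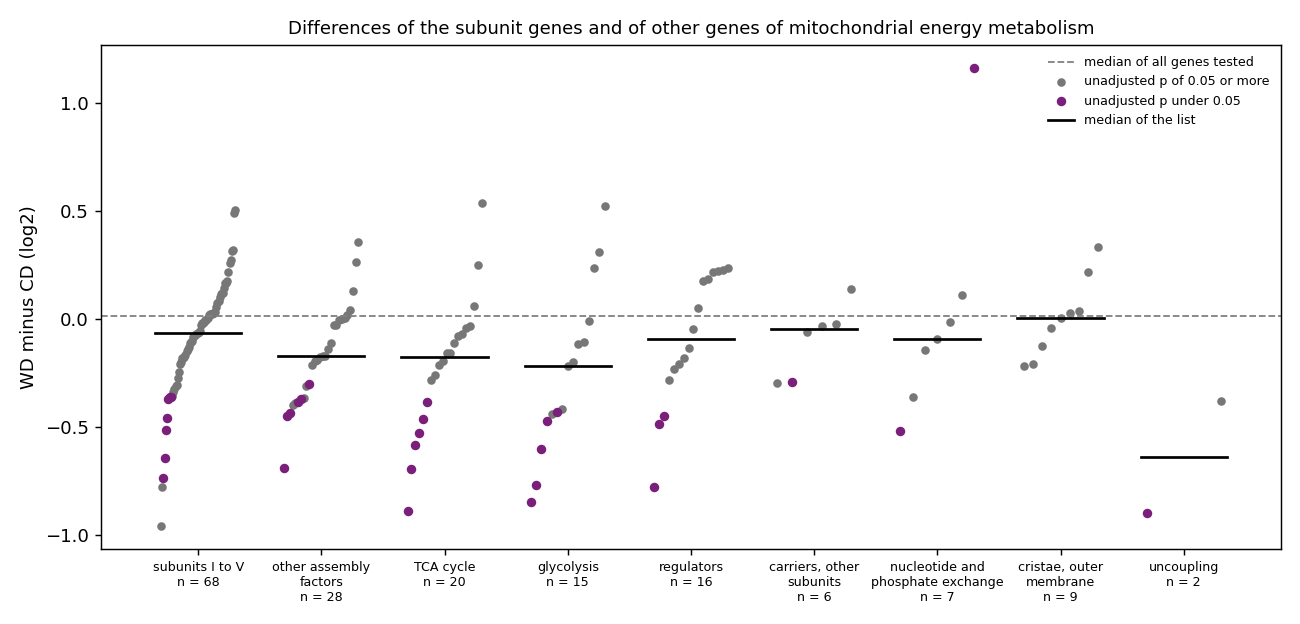
Difference between diet groups (WD minus CD, log2) of each kept gene in the subunit list and in 8 other lists of mitochondrial energy metabolism and glycolysis, with list medians in black and the median of all genes dashed. Points at an unadjusted p under 0.05 are purple and lie below 0 except for 1 exchange gene, Ckmt1.

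Probe identity limits these values. RefSeq lists 234 entries under the prefixes, of which 122 are protein-coding and 111 are pseudogenes, and a probe may read near-identical copies. Of the 122, 42 had no matched probe, so the complexes were followed in part. Of the genes with several kept probes, Atp5mc2 and Uqcrb had probes that differed in direction. Cox7c, Uqcrq and Ndufs4 had 1 probe each, with negative mean levels in both groups, against a median of 4.56 over the 68 subunits. Whether those probes read their transcripts well was not tested. No member's spot was saturated on any array.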

How the data were processed

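Gene expression was measured in 10 rat mammary tumours, 5 per maternal diet, on 1-colour Agilent arrays. The deposited scanner files hold background-subtracted spot intensity, background and raw signal, with marks of 0 or 1 for outlier, saturated and well-above-background spots (Feature Extraction 11.5.1.1 per the file headers, 15.5 per the submitters' processing notes). The authors' value table holds log2 values of the same arrays that rank the spots as the raw median signal does; its centring was not stated. Members and lists were chosen with earlier results of these data known.

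From the deposited intensity, outlier spots and controls were left out, spots of a probe averaged, and log2 taken minus the array's 75th percentile. Of 41012 probes, 17502 (42.7%) were named through their transcript accession in RefSeq; gene symbols of the files themselves were not used here. Probes well above background on at least 5 of 10 arrays were kept, and the probe of highest mean level stood for a gene. limma 3.58.1 (R 4.3.3) was fitted to all genes with no covariate and tested on simulated data. Tumour number limits the precision. The values of 1 complex I gene are not reported here. Correlations between arrays ran from 0.915 to 0.977.

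Named were, in each complex, the 4 subunits of smallest unadjusted p, the 5 members of largest SD, isoform pairs, catalytic subunits and Atp5if1, members whose probes disagree, and the 2 genes of smallest p in each other list; genes at an unadjusted p under 0.05 or without overlap were added after their values were seen. Alternatives were normexp (offset 50, on median signals because no mean signal was used here), quantile normalization, other centrings, the value table, other filters, the mean of a gene's probes, blocks for slide and replicate number, array brightness, and leaving out each tumour or, chosen after seeing the data, the slide 1 arrays. Marker and pathway lists are those named in the results. Myoepithelial markers (4 of 5 lower, median -0.17), mast cell markers (4 of 5 lower, -1.21), endothelial markers (0 of 2 lower, 0.48), muscle markers (0 of 3 lower, 0.26), the adipocyte marker Cidea (-0.31) and secretory markers (4 of 5 lower, -0.69) were also followed. With brightness as a covariate the secretory list had 1 of 5 lower (median 0.90) and the myoepithelial list 2 of 5 (0.10). The mast cell and endothelial lists kept 4 of 5 and 0 of 2 lower. Cidea was at 0.33 without slide 1.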

Additional observations from a re-analysis of the deposited data

Results flagged for a closer look

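In 6 of 112 gene and group sets of 5 tumours, 1 tumour stood far from the other 4 by Dixon's criterion, a number close to the 1 in 20 that chance gives. Atp5f1b was at 3.04 in CD3, where the nearest other CD tumour was at 3.78. Atp5f1c was at 3.29 in CD4, with the nearest at 3.56. Cox7a2 in CD4 was at 4.36 and Sdhb in CD4 at 3.66, so CD4 gave 3 of the 6. Cox6a1 was at 7.06 and Ndufb6 at 3.34 in WD2. WD2 and CD4 were also the tumours with the most subunits below their own mean, 54 of 68 each. Without CD3 the Atp5f1b difference was -0.92, and without CD4 the number of members whose groups do not overlap was 8 in place of 4. Leaving out a tumour can only keep or raise such a number, for members and for all genes alike. The share of all genes without CD4 is not given.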

How the results depend on the processing

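No gene passed the adjusted threshold under any alternative except without the 3 slide 1 arrays, where 5 genes did (lowest adjusted p 0.0297), none of them a member. The count of members at an unadjusted p under 0.05 was 11 of 77 (15.5% of all genes). It was 0 with normexp (2.97% of all genes), 2 with brightness as a covariate (5.73%), 20 with the array median subtracted (21.7%) and 6 without slide 1 (13.2%). It ran from 8 to 11 when single tumours were left out, where the shares of all genes are not given. Non-overlapping members numbered 4 (3.65% of all genes overlapped in neither direction), against 0 with normexp, 2 with the deposited value table and 8 with the median subtracted. There were 9 without slide 1 (11.9% of all genes) and 4 to 8 without single tumours. With fewer tumours the number can only stay or rise, for members and for all genes alike. The shares of all genes for the other settings are not given, so those counts cannot be read as results about the members. Subtracting the median moved the median of all genes to -0.24 and the complex medians to -0.32, -0.42, -0.43, -0.21 and -0.27 (I to V). Relative to all genes these are -0.08, -0.18, -0.19, 0.03 and -0.03. A changed array constant moves the difference of every gene without a missing value by the same amount. These relative values therefore repeat the main fit, and the signs of members that turned under this setting turned through that shift. Without single tumours the complex medians ran from -0.12 to -0.00 (I), -0.21 to -0.12 (II), -0.23 to -0.14 (III), -0.00 to 0.15 (IV) and -0.064 to 0.045 (V). The cause of the other changes was not tested.

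Of 51 named genes, 40 kept their sign under every alternative, among which the replicate block could not turn the sign of a member. Uqcrb reversed to 0.038 with normexp, 0.040 with its probes' mean or a slide block, 0.002 with quantile and 0.001 with detected-probe scaling, 0.012 with the value table and 0.032 without slide 1. Median subtraction gave Atp5if1 -0.18, Atp5mc1 -0.22, Atp5mc2 -0.23, Cox6a1 -0.19, Cox7a2 -0.23, Cox8a -0.077, Ndufs7 -0.13 and Sdhd -0.13. The probes' mean gave Atp5mc2 -0.11. Brightness gave Atp5if1 -0.28, Atp5mc1 -0.053 and Immt -0.009, and leaving out slide 1 gave Cox4i1 0.090. Without single tumours the ranges were -0.036 to 0.231 (Atp5if1), -0.063 to 0.099 (Atp5mc1), -0.024 to 0.105 (Atp5mc2), -0.075 to 0.085 (Cox7a2) and -0.086 to 0.041 (Uqcrb).

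Replicate numbers did not pair the tumours: deviations of same-numbered tumours correlated between -0.017 and 0.16, and 0 of 10 correlated best with their own number. With the replicate block 10 members had an unadjusted p under 0.05 (share of all genes not given). The complex medians were -0.07, -0.17, -0.18, 0.04 and -0.01, as in the main fit. This block cannot alter them, because each replicate number is held by a WD and a CD tumour. On slides, the block gave 10 members (9 lower, 1 higher), where 17.4% of all genes were at that p.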
